A study of Homo sapiens with 15 samples.

Results

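The genes described here encode the proteins of the cytoplasmic ribosome. They were chosen by name: after the suffix .primary was removed, every gene was taken whose symbol follows the RPL, RPS or RPLP pattern with a number and an optional A, X, L, AL or L1, together with RPSA. RPS4Y1 and pseudogenes were left out. The rule found 83 genes of 15990 named in either table, 51 for the large subunit and 32 for the small subunit. All 83 matched a protein-coding RefSeq symbol. RNA immunoprecipitation followed by sequencing was carried out in 22Rv1 and LNCaP, established human prostate cancer cell lines, to ask which RNA accompanies SWI/SNF, a chromatin remodelling complex, in cells where the long non-coding RNA SCHLAP1 is of interest. Brg1 is the ATPase of SWI/SNF, and Sfpq is an RNA-binding protein of nuclear paraspeckles. From 22Rv1 there were 2 libraries of a Brg1 precipitate, 2 of an Sfpq precipitate, 3 of a control precipitate (IgG) and 2 of RNA before precipitation (Input). From LNCaP there were 2 Brg1, 2 IgG and 2 Input libraries. Per the labels, every group had a light formaldehyde fixation, an ERCC spike-in and a stranded kit with ribosomal RNA depletion, and Input RNA was diluted to approach the highest concentration among the precipitates. The labels name no treatment and do not say whether lettered replicates are separate cultures, so p-values measure only the spread between these libraries, which may be technical.

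Each ribosome is built from a small subunit, which reads the messenger RNA, and a large subunit, which joins amino acids. Ribosomal protein mRNAs are short, abundant and mostly cytoplasmic. Most begin with a 5′ terminal oligopyrimidine (TOP) sequence, a run of C and T (U in the RNA) at the start of transcription through which growth signals control their translation. Many ribosomal protein genes also carry small nucleolar RNA (snoRNA) genes in their introns, and by RefSeq positions 29 of the 83 did. These genes have many near-identical processed pseudogenes, and the counting rules are not given in the sources used here, so reads may have been split between copies and single values are uncertain in that respect.

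The starts of a few genes are printed to show the sequence at genes from both ends of the changes that follow. Each line gives the 30 bases centred on an annotated start of transcription (15 on each side), 5′ to 3′ on the strand of the gene, from RefSeq on build GRCh38.p14, with the longest run of C and T in capitals. The genes RPLP1, RPS12, RPS21, RPS28, RPS29, RPL39 and RPL22 had among the largest reductions against Input in at least 1 comparison. RPL7A, RPS27L, RPL26L1 and RPL7L1 had the smallest reductions with Brg1 in 22Rv1.
RPLP1 (chr15:69452803-69452832, plus strand): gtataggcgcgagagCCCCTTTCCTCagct
RPS12 (chr6:132814554-132814583, plus strand): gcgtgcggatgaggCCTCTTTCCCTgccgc
RPS21 (chr20:62387088-62387117, plus strand): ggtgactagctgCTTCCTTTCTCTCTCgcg
RPS28 (chr19:8321481-8321510, plus strand): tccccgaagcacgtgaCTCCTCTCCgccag
RPS29 (chr14:49598696-49598725, minus strand): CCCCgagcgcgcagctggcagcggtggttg
RPL39 (chrX:119791616-119791645, minus strand): ttcttccgccagCTTCCCTCCTCTTCCTTT
RPL22 (chr1:6199581-6199610, minus strand): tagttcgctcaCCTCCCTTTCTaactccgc
RPL7A (chr9:133348203-133348232, plus strand): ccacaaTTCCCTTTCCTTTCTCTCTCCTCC
RPS27L (chr15:63157463-63157492, minus strand): aagttgatgccgagcgcagatcgCTTgcag
RPL26L1 (chr5:172958714-172958743, plus strand): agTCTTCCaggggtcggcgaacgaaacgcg
RPL26L1 (chr5:172958865-172958894, plus strand): ggcggggcggcggccacaaaCCCgcaggca
RPL7L1 (chr6:42879601-42879630, plus strand): cggaagtgcggcgCCgtagctaggagcgga

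RPLP1, RPS12, RPS21, RPL39, RPL22 and RPL7A each have a run of at least 11 C or T bases, with the longest, 24, in RPL7A. RPS28 has a run of 9, and RPS29 one of only 4. The runs of RPS27L, RPL26L1 and RPL7L1 measured 3, 6 or 3 (at its 2 annotated starts) and 2 bases. Starts were found for 67 of the 83 genes, 83 starts in all. A run of at least 8 C or T bases lay in 68.7% of these windows, against 13.7% of the 35116 starts in the whole RefSeq table, and the median longest run was 10 against 4. The motif CTTTC was in 38.6% of the windows against 4.41% of all starts, and its reverse complement GAAAG in 2.41% against 3.21%. These are descriptions of sequence, and a match is not a measured site.

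The deposited tables hold a plain row and, for many genes, a second row with the suffix .primary, whose meaning the sources used here do not state, and the kinds were kept apart. In 22Rv1 the ribosomal protein genes had 83 plain and 46 .primary rows of 22542, and in LNCaP 82 and 47 of 22169. RPL39L and RPL8.primary were not in the LNCaP table. Reads recovered from the deposited values ran from 490879 to 47871438 a library in 22Rv1 and from 22184 to 7506724 in LNCaP, with both LNCaP IgG libraries far below the rest (22184 and 46297 reads) and so of little precision. In LNCaP 10 of 10 prostate luminal markers, each as the sum of its plain and .primary rows, exceeded 10 RPM (reads per 1000000 reads of the table) in both Inputs. The 22Rv1 table holds 6 of them, 5 above that level, and lists none of FOLH1, KLK2, KLK3 and TRPM8. The .primary rows took 62.7% to 65.7% of reads in 22Rv1 Brg1, 27.5% to 33.4% in Sfpq, 39.1% to 62.5% in IgG and 34.8% to 38.2% in Input. In LNCaP they took 50.8% to 60.5% in Brg1, 66.8% to 66.9% in IgG and 35.2% to 42.3% in Input.

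Summed over their plain rows, ribosomal protein genes made up a smaller share of every immunoprecipitate than of Input. In 22Rv1 the share of all reads was 3.90% and 3.86% in Input, 1.06% and 1.19% with Brg1, and 1.26% and 0.883% with Sfpq. The IgG libraries gave 1.46%, 1.35% and 2.74%, also below both Inputs and above both Brg1 and both Sfpq libraries. The Input mean was 3.45 times the Brg1 mean, 3.62 times the Sfpq mean and 2.10 times the IgG mean. In LNCaP the share was 2.46% and 2.90% in Input, 1.89% and 1.22% with Brg1, and 1.23% and 1.16% with IgG. The Input mean was 1.72 times that of Brg1 and 2.25 times that of IgG, so the Brg1 fall there did not exceed that of the control. Exact 95% binomial intervals, which cover counting error only, were widest in the shallowest library, LNCaP IgG A, at 1.09% to 1.38%. Groups of 2 or 3 libraries are too few for an exact permutation test of these sums to pass 0.05, and none was run. A share cannot tell less of these RNAs from more of the others.

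**Figure D1:**
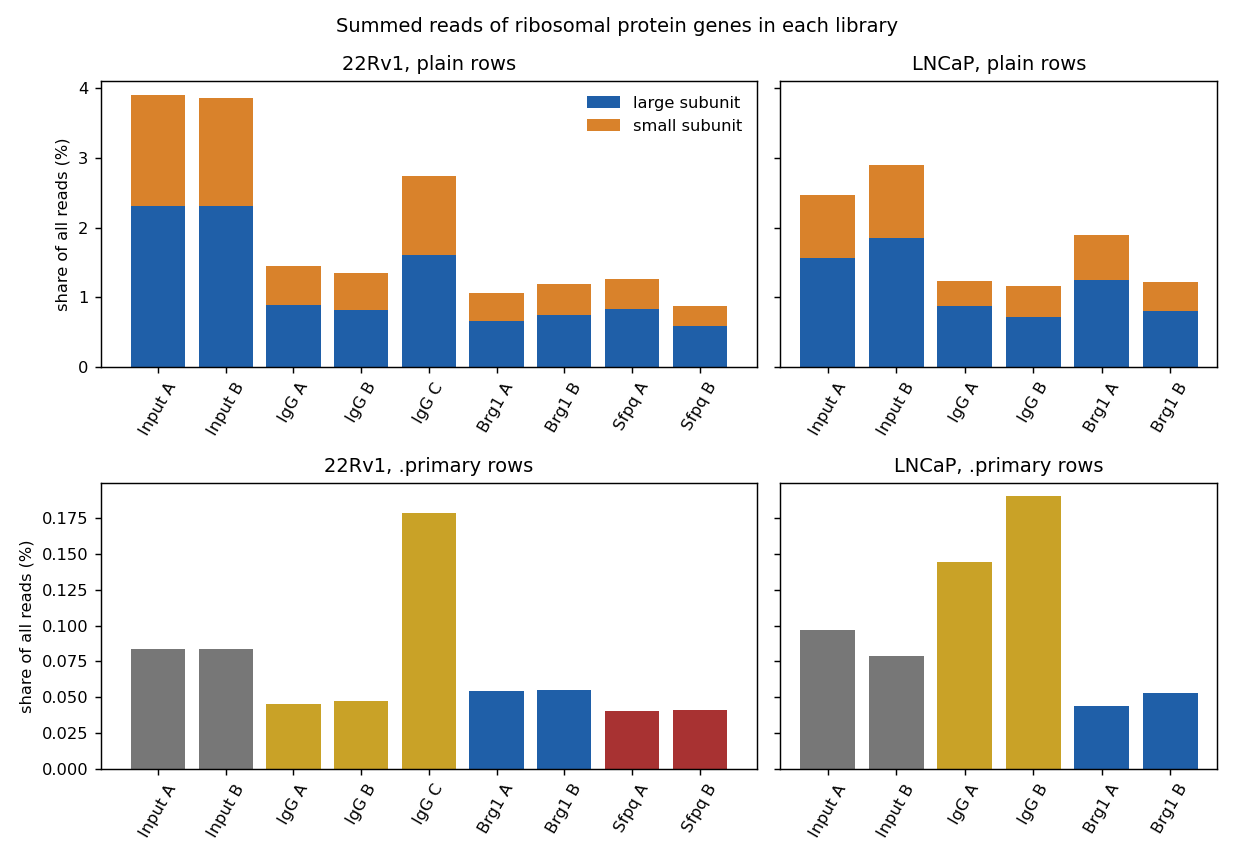
Share of all reads, in percent, taken by ribosomal protein genes in each library, as bars; the upper panels stack the large and small subunit in plain rows and the lower panels show .primary rows on their own scale, coloured by group. Plain shares in 22Rv1 lie at 3.86% to 3.90% in Input and at 0.883% to 1.26% with Brg1 and Sfpq, while the highest .primary share among the 22Rv1 libraries is that of IgG C, 0.178%.

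The small subunit lost more of its share than the large subunit in both cell lines. The ratio of large to small subunit reads was 1.44 and 1.48 in 22Rv1 Input, 1.68 and 1.69 with Brg1, 1.93 and 1.98 with Sfpq, and 1.57, 1.51 and 1.43 with IgG. The Brg1 and Sfpq ratios thus all lay above both Inputs, while the IgG ratios overlapped them. In LNCaP the ratio was 1.75 and 1.76 in Input, 1.91 and 1.88 with Brg1, and 2.55 and 1.64 with IgG. Expressed by subunit, the Input mean was 3.26 times the Brg1 mean for the large and 3.77 times for the small subunit in 22Rv1, and 1.67 and 1.81 times in LNCaP. With Sfpq the ratios were 3.25 for the large and 4.34 for the small subunit. As a share of all reads, the .primary rows came to 0.0836% and 0.0834% in 22Rv1 Input, 0.0543% and 0.0548% with Brg1, and 0.0406% and 0.0412% with Sfpq. IgG libraries A and B gave 0.0456% and 0.0474%, and IgG C 0.178%. The Input mean was 1.53 times the Brg1 mean for .primary rows in 22Rv1, against 3.45 for plain rows, and 1.81 against 1.72 in LNCaP. Among reads of the same kind the order differed in 22Rv1, with 2.7 for .primary against 1.95 for plain rows.

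With the Brg1 antibody in 22Rv1, every ribosomal protein gene fell against Input in its plain row. All 83 plain rows had a lower share in both Brg1 libraries than in either Input and all 83 passed the test, with a median log2 change of -1.76 and a range of -2.94 to -0.84. The background was high: 75.4% of all 10855 plain rows were called lower, 85.2% were lower in every library and 4.62% higher in every library, and the median over all plain rows was -0.77. The counts are therefore close to what most transcripts showed, and the members differ in size, with all 83 below the median of all plain rows. Changes are differences of log2(RPM + 1), tested with limma on the 2 groups and called at a Benjamini-Hochberg adjusted p under 0.05 over all rows of the table. The Brg1 level of a gene was 12.9% to 54.0% of its Input level, with a median of 29.0%. The median change was -1.67 for the 51 large subunit genes and -1.89 for the 32 small subunit genes.

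RPLP1, RPLP0 and RPLP2 encode the stalk, through which translation factors reach the large subunit. Their plain rows fell by more than the member median of -1.76, and RPLP1 fell most of all members. RPLP1 gave 76.98 and 85.5 RPM with Brg1, 645 and 615 in Input and 160.5, 287 and 342 with IgG, a change of -2.94 ± 0.11 (SE, limma adjusted p = 6.95e-10) against Input. Both Brg1 libraries lay far below both Inputs and also below all 3 IgG libraries. RPLP0, the anchor of the stalk, went from 986 and 1024 RPM in Input to 208 and 243 with Brg1, a change of -2.16 ± 0.12 (SE). RPLP2, the partner of RPLP1, changed by -2.18 ± 0.12 (SE).

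Small subunit genes held 3 of the 4 largest falls. RPS12, a protein of the small subunit head, gave 35.03 and 38.7 RPM with Brg1 and 282 and 287 in Input, a change of -2.92 ± 0.11 (SE, limma adjusted p = 6.95e-10). Its IgG values of 42.04, 18.3 and 187 RPM spread on both sides of the Brg1 values. RPS28 was at 29.4 and 33.5 RPM with Brg1 against 222 and 211 in Input (-2.75 ± 0.12 SE), and RPS21 at 39.4 and 38.3 against 237 and 199 (-2.45 ± 0.12 SE). RPSA, RPS3, RPS6 and RPS27A were named whatever their values, unlike these extremes, and their changes were nearer the median. RPSA, also known as the laminin receptor precursor, changed by -1.85 ± 0.12 (SE), and RPS3, which lines the mRNA entry channel, by -1.56 ± 0.12 (SE). RPS6, the substrate of the S6 kinases, changed by -1.79 ± 0.13 (SE), and RPS27A, which is made as a fusion with ubiquitin, by -1.69 ± 0.11 (SE).

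In the large subunit, RPL41, which encodes a very short peptide, was at 142 and 164 RPM with Brg1 and 751 and 707 in Input (-2.24 ± 0.12 SE). RPL39, which lines the peptide exit tunnel, was at 66.04 and 62.5 against 305 and 408 (-2.44 ± 0.13 SE). RPL13A, host of 4 snoRNA genes, was at 183 and 222 against 683 and 744 (-1.82 ± 0.13 SE). In each of these the Brg1 and Input libraries were separate. RPL7A, also a snoRNA host, kept more of its share, with 288 and 346 against 737 and 758 RPM (-1.24 ± 0.12 SE, limma adjusted p = 7.97e-07). The 29 genes that hold a snoRNA gene had a median change of -1.88 and the other 54 one of -1.68. The 53 genes with a C and T run of at least 8 at a start had a median of -1.79, and the 14 without one had -1.50; these are descriptions of the lists, with no test.

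The smallest falls belonged mostly to paralogs, second copies of a ribosomal protein gene. RPL26L1 gave 8.46 and 11.3 RPM with Brg1 and 18.2 and 18.4 in Input, a change of -0.84 ± 0.20 (SE, limma adjusted p = 0.00168), where RPL26 changed by -1.55 ± 0.11 (SE). Its IgG values, 21.02, 46.3 and 26.5 RPM, were all above both Inputs, while both Brg1 values were below them. RPS27L, a target of p53, gave 11.7 and 10.6 against 28.1 and 16.8 (-0.91 ± 0.22 SE, limma adjusted p = 0.00202), where RPS27 changed by -2.10 ± 0.16 (SE). RPL7L1 gave 55.5 and 69.1 against 134 and 154 (-1.20 ± 0.13 SE), and RPL7 changed by -1.53 ± 0.12 (SE). RPL36AL changed by -1.24 ± 0.14 (SE) and RPL36A by -2.07 ± 0.12 (SE). RPL39L changed by -1.57 ± 0.28 (SE) against -2.44 for RPL39. RPL22L1 differed from these pairs, with -1.86 ± 0.26 (SE) against -1.79 ± 0.12 (SE) for RPL22. Differences between a paralog and its parent were not tested. Without Input A, RPS27L was at -0.55 and not called (limma adjusted p = 0.0743). As shares of plain reads only, RPL26L1 and RPS27L were at -0.07 and -0.13, neither called.

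**Figure D2:**
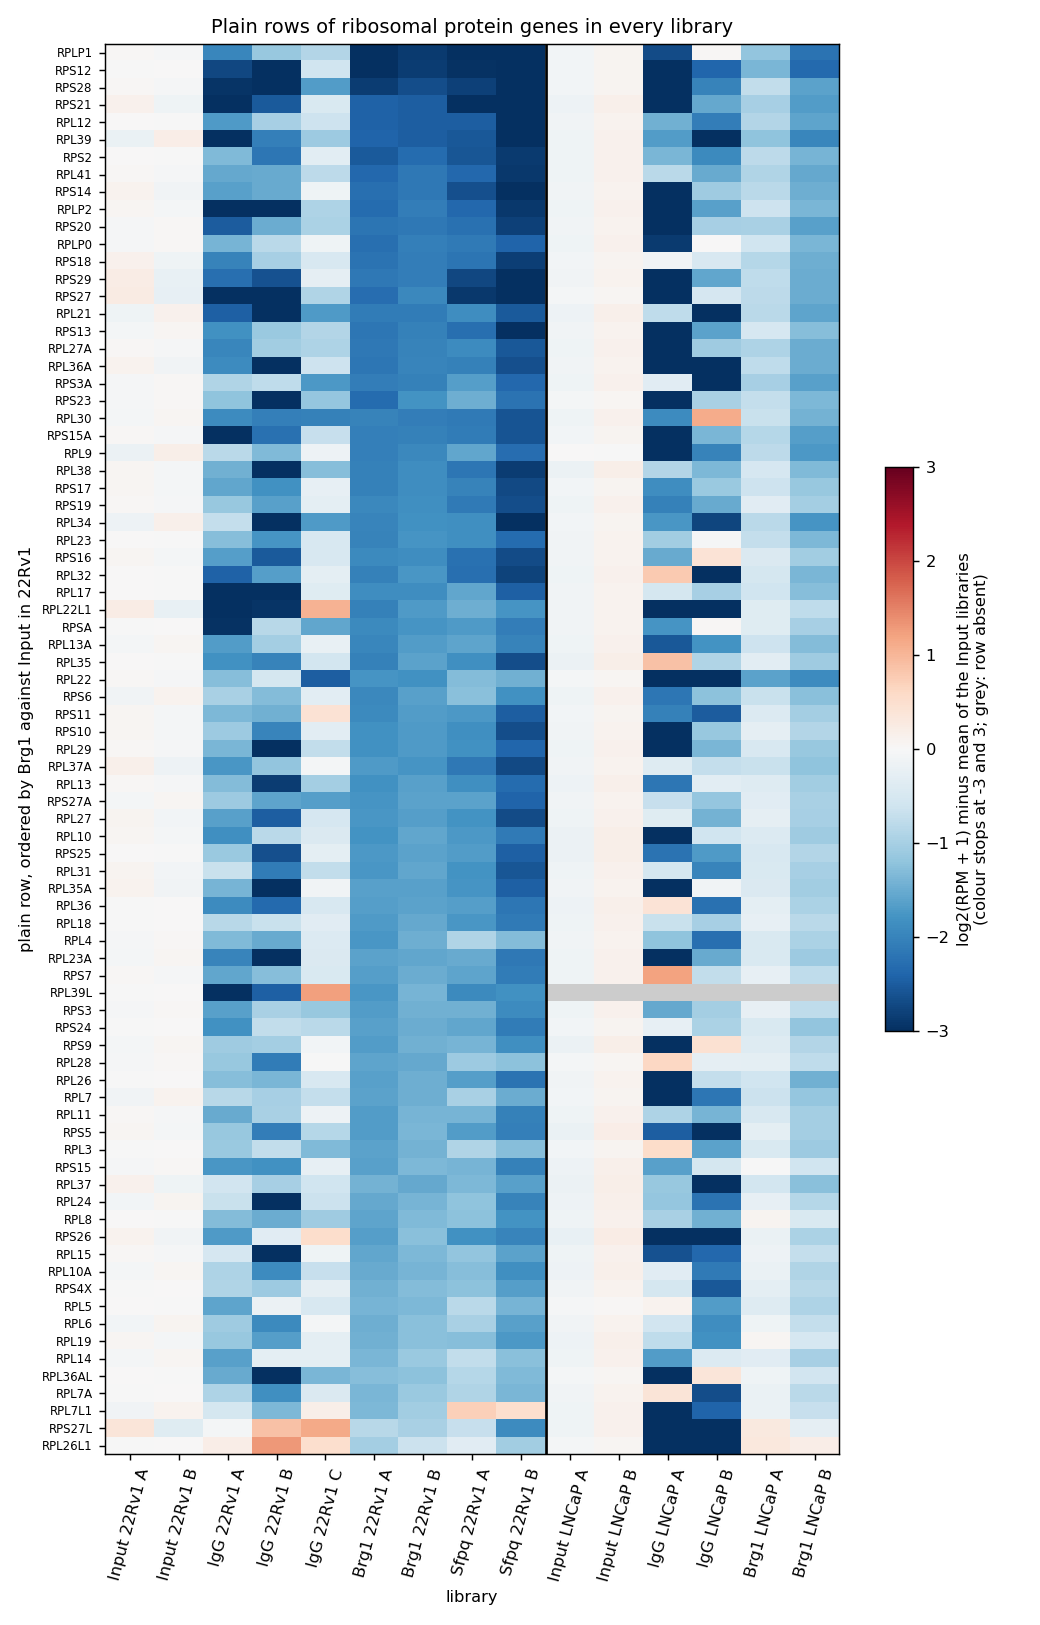
Heat map of log2(RPM + 1) minus the mean of the Input libraries of the same cell line, for the plain rows of 81 of the 83 genes (rows, ordered by the Brg1 change in 22Rv1) in all 15 libraries (columns); blue is below Input, red above, and grey marks RPL39L, absent in LNCaP. The Brg1 and Sfpq columns of 22Rv1 are blue throughout except for RPL7L1 with Sfpq, and the LNCaP IgG columns vary widely from gene to gene.

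The calls depended on which libraries estimated the spread. With all 9 libraries of 22Rv1 in 1 limma fit the log2 changes were the same and 0 of 83 plain rows passed, with 67 at an unadjusted p under 0.05. edgeR on all groups also called 0 (66 unadjusted), DESeq2 called 44 lower, and edgeR on the 2 groups alone called 83 lower. The .primary share of reads was higher in Brg1 than in Input; taken as shares of plain reads only, 81 of 83 plain rows were called lower, with a median of -0.96 against 0.00 for all plain rows. TMM scaling moved the median of all plain rows from -0.77 to -0.58 and that of the members from -1.76 to -1.56, and the deposited scaling moved them to -1.25 and -2.21. The gap between members and all plain rows was -0.99, -0.98 and -0.97 in turn.

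Most .primary rows of the same genes fell with Brg1 in 22Rv1, where most .primary rows of the table rose. Of 46 .primary rows, 31 were called lower and 1 higher, against 11.3% lower and 54.1% higher among all 11687 .primary rows. In 37 both Brg1 libraries were below both Inputs (19.1% of all .primary rows) and in 3 above them (63.2%). The median change was -0.65 against 0.53 for all .primary rows, and 45 of the 46 were below that median. The medians were -0.65 for the 32 large and -0.66 for the 14 small subunit rows.

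RPS15A.primary fell from 27.6 and 36.3 RPM in Input to 12.6 and 12.9 with Brg1, a change of -1.24 ± 0.17 (SE, limma adjusted p = 1.9e-05). RPL10A.primary fell from 34.1 and 33.4 to 15.5 and 13.9 RPM (-1.15 ± 0.16 SE). RPL6.primary changed by -1.18 ± 0.38 (SE), although its 2 Brg1 libraries, at 2.88 and 10.7 RPM, stood apart. Without Brg1 A it was at -0.38 and not called (limma adjusted p = 0.145), nor was it without Input A (limma adjusted p = 0.107). The 1 row called higher was RPL39L.primary, from the paralog of RPL39, which gave 15.8 and 16.5 RPM with Brg1 and 6.91 and 6.55 in Input, a change of 1.15 ± 0.21 (SE, limma adjusted p = 0.000191). Its IgG values of 0.452, 61.1 and 18.3 RPM fell on both sides of these, and as a share of .primary reads its change was 0.43 and not called (limma adjusted p = 0.1). RPL35.primary (0.26 ± 0.17 SE), RPL32.primary (0.19 ± 0.14 SE) and RPL27A.primary (0.16 ± 0.19 SE) were not called. Their changes turned negative, without a call, under the deposited scaling, and as a share of .primary reads each was called lower. Under TMM scaling RPL35.primary and RPL32.primary were called higher, so their direction depends on the scaling. With all groups in 1 fit 0 of the 46 passed (0 at an unadjusted p under 0.05), edgeR on all groups and DESeq2 also called 0 (1 and 2 unadjusted), and edgeR on the 2 groups alone called 18 lower and 3 higher. Without Input A, 19 were called lower and 1 higher.

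**Figure D3:**
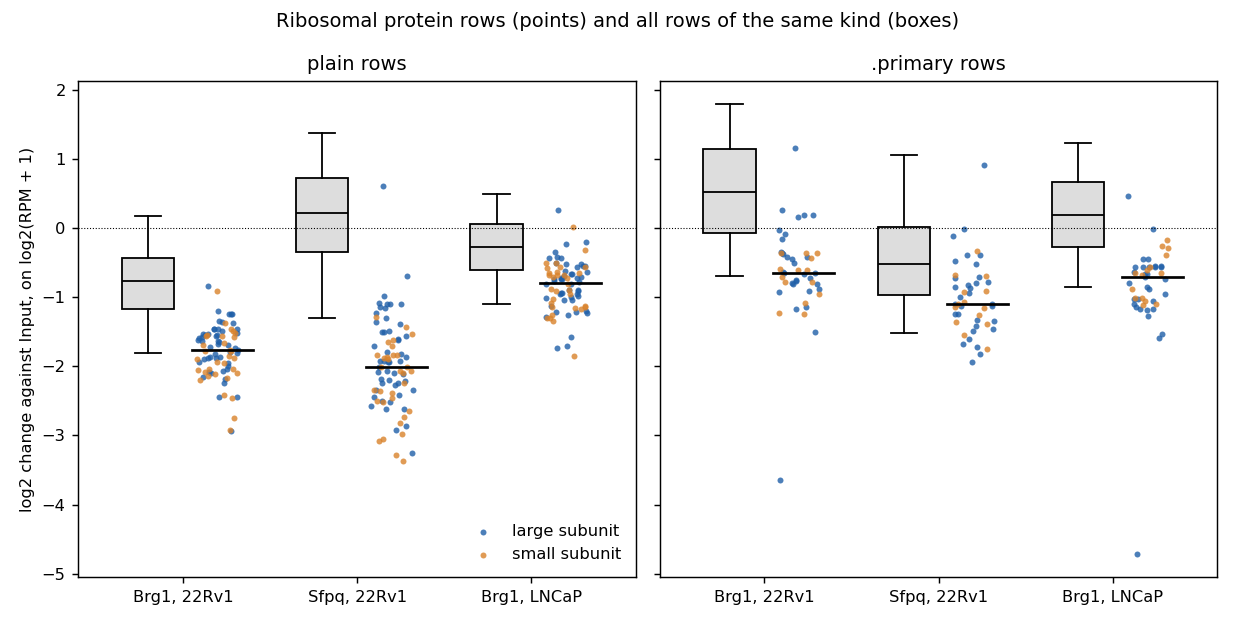
Log2 change against Input on the log2(RPM + 1) scale for Brg1 in 22Rv1, Sfpq in 22Rv1 and Brg1 in LNCaP, plain rows left and .primary rows right; grey boxes give the 25th, 50th and 75th percentiles of all rows of that kind with whiskers at the 5th and 95th, points are ribosomal protein genes and black lines their medians. The member medians lie below those of all rows in all 6 pairs, by the widest gap for plain rows with Sfpq (-2.01 against 0.22).

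With the Sfpq antibody in 22Rv1, 82 of 83 plain rows fell against Input and 1, RPL7L1, rose. Here the background ran the other way: 39.6% of all plain rows were called higher and 21.1% lower, and their median change was 0.22. The members had a median of -2.01 and a range of -3.37 to 0.60, and the Sfpq level was 9.36% to 152% of Input with a median of 25.5%. All 82 that fell were lower in both Sfpq libraries than in either Input, which 30.7% of all plain rows were. Large subunit genes had a median of -1.93 and small subunit genes one of -2.08. This comparison uses the same Input libraries as that of Brg1, so the 2 sets of values are given side by side and are not independent.

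RPS21 fell most, from 237 and 199 RPM in Input to 23.8 and 17.00 with Sfpq, a change of -3.37 ± 0.17 (SE, limma adjusted p = 4.36e-09) where Brg1 gave -2.45. RPS12 went to 35.4 and 22.4 RPM (-3.29 ± 0.18 SE) and RPLP1 to 78.9 and 53.7 (-3.25 ± 0.16 SE). RPS29, a small zinc-binding protein, went from 266 and 192 to 33.1 and 20.3 RPM (-3.08 ± 0.20 SE). All of these Sfpq values were below both Inputs, and Sfpq B was the lower library in each. Smaller falls were seen for RPL3, at the peptidyl transferase centre (577 and 447 against 1070.2 and 1086 RPM, -1.08 ± 0.15 SE), and RPL14 (228 and 159 against 366 and 394 RPM, -0.99 ± 0.16 SE). The remaining changes were -2.27 for RPLP0, -1.79 for RPL13A, -2.62 for RPL41, -1.88 for RPSA, -1.65 for RPS3, -1.53 for RPS6 and -2.01 for RPS27A. Among paralogs, RPL22L1 changed by -1.62, RPS27L by -1.28, RPL39L by -1.87, RPL36AL by -1.09 and RPL26L1 by -0.69. The call of RPL26L1 was lost under TMM scaling (-0.54, limma adjusted p = 0.0506), under the deposited scaling (limma adjusted p = 0.0534), without Input A, without Input B and without Sfpq B (-0.35, limma adjusted p = 0.157). RPS27L ranged from -1.88 to -0.68 with 1 library left out, and its calls remained.

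RPL7L1, a nucleolar relative of RPL7 on chromosome 6, was the exception. It gave 235 and 202 RPM with Sfpq, 134 and 154 in Input, 55.5 and 69.1 with Brg1 and 99.7, 55.96 and 163 with IgG. Both Sfpq libraries were above every other 22Rv1 library, and the change against Input was 0.60 ± 0.14 (SE, limma adjusted p = 0.00171). The call was lost without Input A (0.50, limma adjusted p = 0.0552) and under the deposited scaling (0.09, limma adjusted p = 0.929). RPL7, its parent, fell from 403 and 469.8 to 219.6 and 155 RPM (-1.23 ± 0.16 SE). RPL7L1.primary also fell with Sfpq, from 20.4 and 22.8 to 7.42 and 8.43 RPM (-1.34 ± 0.20 SE).

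Of the 46 .primary rows, 38 fell and 1 rose with Sfpq, where 49.9% of all .primary rows were called lower and 11.6% higher, with a median of -1.10 against -0.52. In 42 both Sfpq libraries were below both Inputs, as in 62.7% of all .primary rows. RPL39.primary fell from 20.6 and 18.8 RPM to 5.46 and 4.35 (-1.82 ± 0.22 SE, limma adjusted p = 8.75e-06), and RPSA.primary from 26.7 and 33.2 to 9.38 and 7.07 (-1.75 ± 0.21 SE). RPL36A.primary changed by -1.67 ± 0.22 (SE) and RPL37.primary by -1.60 ± 0.23 (SE). At the other end RPL12.primary (-0.39) and RPS2.primary (-0.33) were not called. The row that rose was RPL13.primary, whose values follow further on. With all 22Rv1 libraries in 1 limma fit 0 plain and 0 .primary rows passed (69 and 4 at an unadjusted p under 0.05). edgeR on all groups also called 0 of either kind (69 and 1 unadjusted), and DESeq2 called 43 plain rows lower and 0 .primary rows (2 unadjusted). edgeR on the 2 groups alone called 81 plain rows lower and 1 higher.

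Plain and .primary rows of the same gene were also set against each other within each library, which leaves most of the scaling of the library out. The added 1 RPM still weighs on rows of few RPM. In Brg1 precipitates of 22Rv1 this balance moved toward .primary for most genes, ribosomal or not. It fell for 40 of the 46 genes with both rows and rose for RPL13 (1.92 ± 0.37 SE), with a median of -1.17, and for 69.1% of all 8246 genes it fell, with a median of -1.10. Without Input B it was called for 27 of the 46. The lowest values were -2.72 for RPL39L, -2.24 for RPL27A, -2.21 for RPS12, and -2.07 for both RPL35 and RPL32. In Sfpq precipitates the balance of ribosomal protein genes moved toward .primary while that of most genes moved toward plain. It fell for 25 of 46 and rose for 1, with a median of -0.88 against 0.91 for all genes, of which 10.0% fell and 57.5% rose, and 45 of the 46 were below the median of all genes. RPL13 (-2.99 ± 0.37 SE), RPS12 (-2.61), RPL12 (-2.48) and RPS2 (-2.40) were among the lowest. RPL7L1 alone rose, by 1.94 ± 0.34 (SE) (limma adjusted p = 5.92e-08).

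Among LNCaP libraries, the balance was called for 1 of 47 genes, RPL13 (4.00 ± 0.80 SE), and fell for none (1 at an unadjusted p under 0.05), with a median of -0.11 against -0.31 for all 7993 genes, of which 13.6% fell and 0.851% rose. Within the members' own reads, .primary rows made up 2.10% and 2.11% in 22Rv1 Input, 4.88% and 4.39% with Brg1, 3.11% and 4.46% with Sfpq, and 3.04%, 3.38% and 6.11% with IgG. All Brg1, Sfpq and IgG libraries were thus above both Inputs. In LNCaP they made up 3.78% and 2.63% in Input and 2.28% and 4.14% with Brg1, which overlap. With all groups in 1 limma fit none of the 3 balances had a call (3, 4 and 0 genes at an unadjusted p under 0.05).

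**Figure D4:**
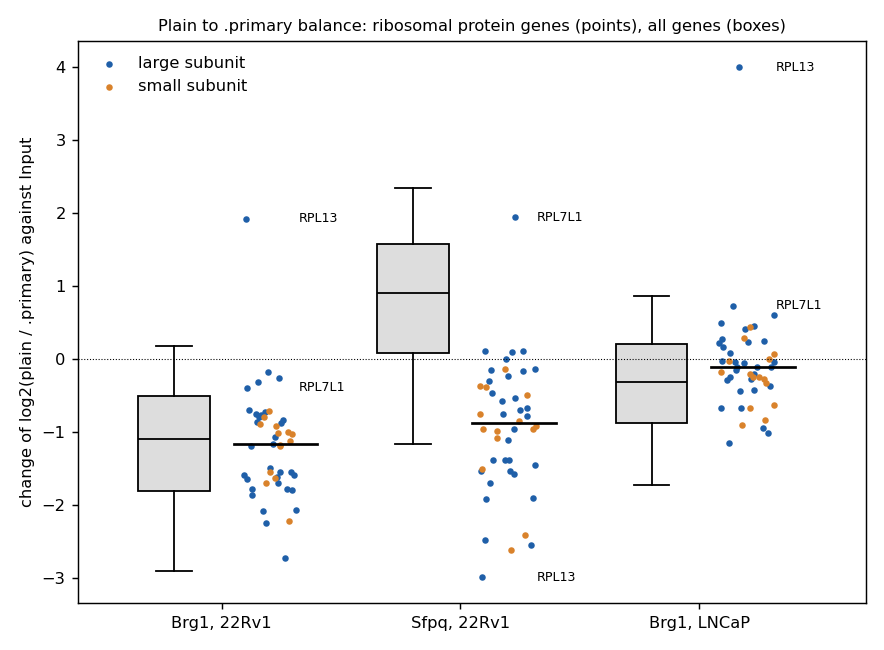
Change against Input of the plain to .primary balance, log2(RPM + 1) of the plain row minus that of the .primary row, for the 46 or 47 ribosomal protein genes with both rows (points, black line at the median) and all genes with both rows (boxes at the 25th, 50th and 75th percentiles, whiskers at the 5th and 95th). Members sit at the level of all genes for Brg1 and below it for Sfpq, with RPL13 and RPL7L1 standing apart.

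RPL13, a large subunit gene on chromosome 16 (89560657 to 89566829) with SNORD68 inside it, had a .primary row without a single read in any Brg1 library. In 22Rv1 RPL13.primary gave 0 and 0 RPM with Brg1, 12.7 and 10.5 in Input and 22.4 and 22.7 with Sfpq. The IgG libraries gave 0, 1.14 and 271 RPM, so the control was itself at 0 in A and high in C. In LNCaP the row gave 0 and 0 RPM with Brg1, 27.9 and 23.05 in Input and 0 and 0 with IgG, but both IgG libraries were too shallow to show it. Set against a floor of 3 reads per library, its Brg1 level was at least 179-fold lower than Input in 22Rv1 and at least 56.4-fold lower in LNCaP. Of the rows with at least 10 RPM in both Inputs, only 2 of 16774 in 22Rv1 and 8 of 15122 in LNCaP were at or under that floor in both Brg1 libraries. The plain row of RPL13 was at 279 and 313 RPM with Brg1 against 1002 and 956 in Input (-1.72 ± 0.12 SE), near the median of the members. With Sfpq RPL13.primary rose by 0.91 ± 0.19 (SE, limma adjusted p = 0.000875), a call lost under the deposited scaling (0.45, limma adjusted p = 0.544). The fitted changes of RPL13.primary and of its balance with Brg1 depend on the pseudocount and are no bounds. The member medians do not depend on them, since RPL13 lies at the end of each list.

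In LNCaP, plain rows of ribosomal protein genes also fell with Brg1, with smaller changes in share than in 22Rv1. With the deposited scaling the medians of the plain rows were close (-2.17 in LNCaP and -2.21 in 22Rv1). Of 82 plain rows, 60 were called lower and 0 higher (70 at an unadjusted p under 0.05), against 20.0% lower and 2.10% higher among all 10718 plain rows. In 76 both Brg1 libraries were below both Inputs, which held for 50.1% of all plain rows. The median change was -0.79, with a range of -1.85 to 0.26, against -0.28 for all plain rows. For the large subunit 35 of 50 fell with a median of -0.77, and for the small subunit 25 of 32 with a median of -0.85. Of 29 snoRNA hosts 26 fell, with a median of -0.91, and of the other 53 genes 34 fell, with a median of -0.73.

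RPS12 fell from 216 and 245 RPM in Input to 88.6 and 44.6 with Brg1, a change of -1.85 ± 0.26 (SE, limma adjusted p = 8.83e-11). RPL22, an RNA-binding protein of the large subunit, fell from 55.9 and 60.5 to 18.5 and 15.01 RPM (-1.74 ± 0.26 SE), and RPLP1 from 279.7 and 313 to 129.9 and 62.6 (-1.70 ± 0.26 SE). RPL39 fell from 133 and 158 to 62.7 and 36.8 RPM (-1.58 ± 0.25 SE). In all 4 genes Brg1 A was above Brg1 B, and both were below both Inputs. RPLP0 (-0.99), RPL13A (-0.96), RPL41 (-1.22), RPS6 (-0.96), RPSA (-0.68) and RPS27A (-0.66) were called lower, and RPS3 was not (-0.51 ± 0.26 SE, limma adjusted p = 0.134). The 6 calls depended on the fit. With all groups in 1 fit none of the 6 passed, nor did any with the replicate letter as a block. edgeR on all groups did not call RPLP0, RPL13A, RPSA, RPS6 or RPS27A. Without 1 Input the 6 changes kept their sign, with RPLP0 at -1.12 (without Input A) and -0.86 (without Input B). In those fits the spread comes from the 2 Brg1 libraries alone, so they cannot decide a call. Without Brg1 B the changes were smaller, with RPLP0 at -0.61, RPL13A at -0.62, RPS6 at -0.66, RPSA at -0.37 and RPS27A at -0.35. RPSA and RPS27A were also not called as shares of plain reads (-0.21 and -0.19).

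The genes not called lower were again led by paralogs. RPL26L1 gave 16.6 and 15.4 RPM with Brg1 and 12.6 and 13.9 in Input, both Brg1 libraries above both Inputs, and was not called (0.26 ± 0.27 SE, limma adjusted p = 0.494). RPS27L gave 36.4 and 24.7 against 27.4 and 32.4 RPM (0.01 ± 0.26 SE), overlapping. RPL7L1 (-0.44 ± 0.25 SE), RPL36AL (-0.35 ± 0.25 SE) and RPL22L1 (-0.56 ± 0.25 SE) were not called either, although in each both Brg1 libraries were below both Inputs. RPL22L1 thus stood apart from RPL22 in LNCaP, at 57.2 and 43.02 RPM against 68.9 and 79.1 in Input, a difference between genes that was not tested. RPL8 (-0.20 ± 0.27 SE) and RPL19 (-0.23 ± 0.27 SE), both of the large subunit, overlapped between groups.

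Among 47 .primary rows in LNCaP, 24 were called lower and 0 higher (32 at an unadjusted p under 0.05), against 8.25% lower and 23.2% higher among all 11451. In 40 both Brg1 libraries were below both Inputs (22.2% of all .primary rows) and in 1 above (42.0%). Their median was -0.70 against 0.18, and 46 of 47 were below the median of all .primary rows. Besides RPL13.primary, RPL22.primary fell from 26.2 and 22.5 RPM to 9.11 and 5.92 (-1.60 ± 0.27 SE, limma adjusted p = 2.88e-07), RPL13A.primary from 53.02 and 46.1 to 19.9 and 22.2 (-1.19 ± 0.26 SE), and RPL27A.primary from 26.4 and 20.9 to 8.95 and 10.8 (-1.17 ± 0.27 SE). RPS6.primary, RPS3.primary, RPL32.primary and RPL35.primary, at -0.29, -0.27, -0.02 and 0.46, were not called. The calls in LNCaP depended on the libraries included. A fit with 1 library in a group takes its spread from the other group alone, so a lost call there need not mean a smaller change. Without Input A, 9 plain and 2 .primary rows were called, without Input B 4 and 7, and without Brg1 B 21 and 29, where Brg1 A is the library with the lower .primary share of reads (50.8% against 60.5%). With all groups in 1 limma fit 0 plain rows (8 at an unadjusted p under 0.05) and 1 .primary row passed, edgeR on all groups called 27 and 18, and DESeq2 31 and 21. With the deposited scaling all 82 plain and all 47 .primary rows were called lower, RPL26L1 and RPL35.primary included. The medians over the whole table moved down too, from -0.28 to -1.67 for plain and from 0.18 to -1.18 for .primary rows. The share of all rows called was not counted under these alternatives, so their call counts do not set the members apart. As shares of plain reads only, 41 plain rows were called lower and 3 (RPL26L1, RPL8 and RPS27L) higher, with a median of -0.32 against 0.17.

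The size of the change was ordered alike in both cell lines. Over the 82 genes with plain rows in both tables, Pearson's r between the Brg1 changes was 0.847 and Spearman's rho 0.843, and over all 9377 shared plain rows 0.699 and 0.678. These describe genes that share libraries and depth within a line and are not replicates. As shares of all reads, all 82 genes had a lower value in 22Rv1 than in LNCaP, as had 8345 of the 9377 plain rows, and 60 genes were called lower in both, against 1852 of all 9377. With the deposited scaling the medians of the plain rows were -2.21 in 22Rv1 and -2.17 in LNCaP, and for .primary rows the medians were -1.12 and -2.14. The tables were scaled separately, and the difference between cell lines was not tested. RPL22 changed nearly equally in both (-1.79 and -1.74). For .primary rows of 44 genes r was 0.793 and rho 0.396, with RPL13.primary far from the rest in both.

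**Figure D5:**
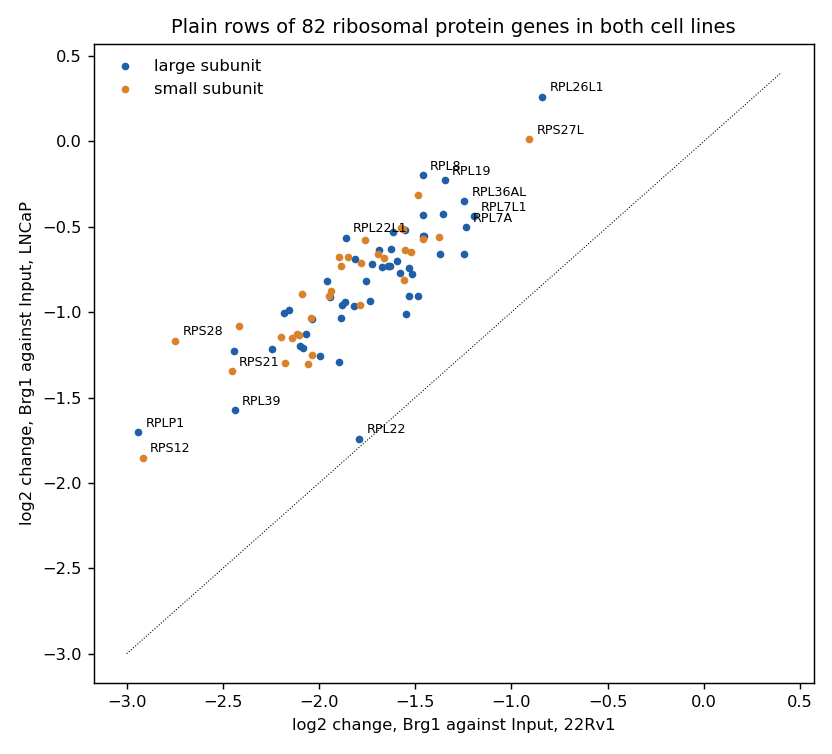
Log2 change of Brg1 against Input in 22Rv1 (x axis) and LNCaP (y axis) for the plain rows of 82 ribosomal protein genes, coloured by subunit, with a dotted line of equal change. All points lie above the line, RPL22 nearest to it, from RPLP1 and RPS12 at the lower left to RPS27L and RPL26L1 at the upper right.

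The IgG controls were also below Input for most of these genes. In 22Rv1, 70 of 83 plain rows were below both Inputs in all 3 IgG libraries (30.4% of all plain rows), with a median change of -1.27 against -1.28 for all plain rows. In 1 plain row all IgG libraries were above both Inputs (3.23% of all), and none was called higher (0.0368%). Only RPL30 was called lower (6.65% of all plain rows), at 53.6, 47.96 and 48.9 RPM against 194 and 209 (-1.99 ± 0.44 SE, limma adjusted p = 0.0332). Of the .primary rows, 7 were called lower (7.32% of all), 17 were below Input in every library (20.7%) and 0 above (9.15%), with a median of -1.56 against -0.62. The count turned on IgG C, the shallowest 22Rv1 library, which had a lower .primary share than the other IgG libraries: without it 44 plain and 12 .primary rows were called lower.

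Set against IgG in 22Rv1, Brg1 gave 0 calls among 83 plain rows (5 at an unadjusted p under 0.05), against 6.13% called higher and 0.230% lower among all plain rows, and a median of -0.46 against 0.50. In 26 plain rows both Brg1 libraries were below all 3 IgG libraries (11.8% of all plain rows). RPLP1, RPLP0, RPL41, RPL13A and RPS6 were among these, and only RPL36AL was above in both (15.0%). For Sfpq there were also 0 calls (10 unadjusted; background 5.77% higher and 0.0276% lower), with a median of -0.68 against 1.41, 25 plain rows below every IgG library (2.78% of all) and 2 above (40.3%). edgeR on all groups called 4 and 9 plain rows lower for Brg1 and Sfpq, and DESeq2 17 and 22. The deposited scaling turns the direction: with it all 83 plain rows were called higher than IgG for Brg1 and for Sfpq, with medians of 6.74 and 6.41 against 6.91 and 7.81 for all plain rows. Among .primary rows 6 were higher with Brg1 than with IgG (7.30% of all), 14 were above every IgG library (34.2%) and 1 below (2.87%). These 6 were RPL22L1.primary, RPL27A.primary, RPL39.primary, RPL6.primary, RPL7L1.primary and RPLP0.primary. With Sfpq 5 were higher (5.82%), RPL27A.primary, RPL39.primary, RPL6.primary, RPL7L1.primary and RPLP0.primary. Each of these rows had between 0 and 0.678 RPM in every IgG library. With rows below a mean of 10 RPM left out, limma gave 0 calls in either comparison (0 .primary rows at an unadjusted p under 0.05). Without IgG B the Sfpq comparison had 0 calls of either kind and without IgG C 9, and without IgG A or C the Brg1 comparison had 10. The comparisons share the IgG libraries.

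In LNCaP the IgG libraries were so shallow that 1 read equals 45.1 and 21.6 RPM, and 26 of 82 plain and 38 of 47 .primary rows had at most 3 reads in both. IgG against Input gave 15 plain rows lower (53.3% of all plain rows), 17 .primary rows lower (34.7%) and 1 .primary row higher (2.77%). Brg1 against IgG gave 8 plain (52.6%) and 16 .primary rows higher (34.8%) and 1 .primary row lower (1.58%). Rows at 0 in both IgG libraries were called although their Inputs lay below what 3 IgG reads would show, so these counts cannot be read as differences. Leaving out IgG A or IgG B gave 112 and 114 calls against Input and 81 and 100 for Brg1 against IgG, from a single library. RPL13A.primary, the row higher in IgG, had 225 and 238 RPM with IgG against 53.02 and 46.1 in Input (2.20 ± 0.35 SE, limma adjusted p = 0.0204), from 5 and 11 reads.

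Genes related by function gave a scale for these values. Among all plain rows, 75.4% were called lower and 2.63% higher with Brg1 in 22Rv1 (median -0.77). With Sfpq 21.1% were lower and 39.6% higher (median 0.22), and with Brg1 in LNCaP 20.0% were lower and 2.10% higher (median -0.28). FAU (-1.20) and RACK1 (-1.32), ribosomal proteins whose names fall outside the rule, fell with Brg1 in 22Rv1 and with Sfpq (-1.46 and -1.37), and neither was called in LNCaP (-0.10 and -0.26). Of 17 other mRNAs with a TOP sequence, mostly translation factors, 17 fell with Brg1 in 22Rv1 (median -1.29), 12 fell and 1 rose with Sfpq (median -0.64), and 6 fell with Brg1 in LNCaP (median -0.41). Of 76 mitochondrial ribosomal protein genes, 63 fell and 1 rose with Brg1 in 22Rv1 (median -0.88), and 41 fell and 4 rose with Sfpq (median -0.51). In LNCaP 5 of 77 fell and 1 rose with Brg1 (median -0.12). Of ribosome biogenesis factors, which assemble the subunits in the nucleolus, 21 of 36 rose and 4 fell with Sfpq (median 0.50). That was also the direction of the median over all plain rows. With Brg1 30 of these factors fell in 22Rv1 (median -0.55) and, in LNCaP, 1 of 35 fell and 1 rose (median 0.15). The cytoplasmic ribosomal protein genes had the lowest median of these lists in all 3 comparisons. No test between lists was made.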

How the data were processed

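The authors deposited 1 table per cell line of normalized read counts (a signal per gene row and library), with replicates kept apart. Per the submitters' processing notes, STAR 2.6, Salmon 0.8.2, deepTools 2.5.2, DESeq2 and build hg38 were used, with no role given. How the scaling factors were chosen, how reads shared by near-identical copies were counted and what .primary stands for are not given in the sources used here. Every deposited value was a whole multiple, within 0.001 read, of the smallest positive value of its column (100% of values), so reads were recovered by that division and expressed as RPM of the table. The deposited factors multiply 1 read by 0.0428 to 5.39 in 22Rv1, least in IgG, and by 0.421 to 4.41 in LNCaP.

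Differences of log2(RPM + 1) between 2 groups were tested with limma 3.58.1 (R 4.3.3, trend, only those groups, no filter on low values) over all rows of a table, with Benjamini-Hochberg adjustment and a threshold of 0.05. The balance is the plain minus the .primary log2 value of a gene, fitted the same way. The tests were checked on counts simulated at the depths of 22Rv1 Brg1 and Input only. At a dispersion (spread between libraries) of 0.01 limma recovered 100% of 2-fold changes. At 0.05 it recovered 20% (edgeR 31%), and 99% of 4-fold changes. Alternatives were a pseudocount of 5 RPM, a minimum mean of 10 RPM, TMM or deposited scaling, shares of reads of the same kind, all groups in 1 fit, the replicate letter as a block, edgeR 4.0.16, DESeq2 1.42.0 and leaving out each library. Where that leaves 1 library in a group, the spread comes from the other group alone. A call lost in such a fit, in either cell line, need not mean a smaller change. Fits of edgeR on 2 groups and crossed letters were added after seeing the data. Sums of members carry exact (Clopper-Pearson) 95% intervals. Folds against rows at 0 use a floor of 3 reads per library.

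The members and lists were chosen with earlier results of these data known. Named were, per comparison with Input, the 4 lowest and 4 highest plain and .primary rows with a mean of at least 10 RPM, RPLP0, RPL13A, RPSA, RPS3, RPS6, RPS27A, RPL41, 8 paralogs (RPL3L and RPL10L are in neither table) and FAU and RACK1. A few results under this rule are not reported here. Added after their values were seen were the parents RPL7, RPL22, RPL26, RPL36A, RPL39 and RPS27, also RPLP2, RPL13 and RPL30, the genes named for their balance and the .primary rows called against IgG. Starts and positions come from RefSeq on GRCh38.p14.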

Additional observations from a re-analysis of the deposited data

Results flagged for a closer look

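As a share of all reads, RPL26L1, the paralog of RPL26, lay on opposite sides of Input with Brg1 in the 2 cell lines. Its plain row changed by -0.84 on the log2(RPM + 1) scale in 22Rv1, with both Brg1 libraries below both Inputs, and by 0.26 in LNCaP, with both Brg1 libraries above both Inputs. It drew attention because every library of each line lay on opposite sides of Input, and it was the only 1 of 32 named plain and .primary rows present in both tables for which that was so. Of all plain rows, 85.2% were below both Inputs in both Brg1 libraries in 22Rv1, and 14.0% were above them in LNCaP. How many shared rows did both was not counted. Because each line has its own separately scaled table, this difference was not tested, and the LNCaP value alone did not pass (limma adjusted p = 0.494). With the deposited scaling the LNCaP value was -1.09 and was called lower (limma adjusted p = 0.00908). As a share of plain reads only, the 22Rv1 value was -0.07 and not called.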

How the results depend on the processing

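Against Input in 22Rv1, 115 (Brg1) and 122 (Sfpq) of the 129 plain and .primary rows passed. All groups in 1 limma fit gave 0 and 0, edgeR on all groups 0 and 0, and DESeq2 44 and 43. Leaving out 1 library gave 102 to 113 and 116 to 124. For Brg1 against Input in LNCaP the count was 84, with 129 under the deposited scaling, 1 with all groups in 1 fit, 45 with edgeR, 52 with DESeq2 and 11 to 93 with 1 library left out. IgG against Input in 22Rv1 gave 8 calls, with 0 at a minimum mean of 10 RPM, 129 under the deposited scaling, 17 with all groups and 6 to 56 with 1 library left out. Brg1 against IgG in 22Rv1 gave 6, with 0 at the minimum mean, 128 under the deposited scaling, 10 with all groups, 25 with DESeq2 and 5 to 10 with 1 library left out. Sfpq against IgG gave 5, with 0 at the minimum mean, 129 under the deposited scaling, 20 as shares of reads of the same kind, 12 with all groups, 11 with edgeR, 29 with DESeq2 and 0 (without IgG B) to 9 with 1 library left out. In LNCaP, IgG against Input gave 33, with 16 at the minimum mean, 129 under the deposited scaling, 53 with edgeR and 23 to 114 with 1 library left out. Brg1 against IgG there gave 25, with 8, 128 and 15 under the same settings and 22 to 100 with 1 library left out. The balance had 41 (Brg1, 22Rv1), 26 (Sfpq) and 1 (LNCaP) calls, 0, 0 and 0 with all groups, and 27 to 38, 18 to 31 and 0 to 2 with 1 library left out. At a minimum mean fewer low rows are tested, and the other causes were not tested. The share of all rows called was not counted under the alternatives, so these counts describe the members only and do not set them apart.

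Libraries with the same letter did not deviate alike across rows. The correlation of their A minus B differences was 0.0401 for Brg1 against Input in 22Rv1, -0.23 for Sfpq and -0.46 for LNCaP. With only the letters A and B to compare in each group, this cannot decide whether libraries of the same letter were made together. With the replicate block the counts were 116, 122 and 15 for these comparisons, 87, 16 and 18 for IgG against Input, Brg1 against IgG and Sfpq against IgG in 22Rv1, and 42, 20 and 0 for the balances. With the letters crossed the counts were 122 for Sfpq, 111 for LNCaP Brg1, 26 for the Sfpq balance and 6 for the LNCaP balance.

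Of 77 named results, 77 kept direction and call at a pseudocount of 5 RPM and 72 under TMM scaling, but 18 with all groups in 1 fit, 25 with edgeR on all groups and 42 with DESeq2. None of those that changed sign was called in the main fit, but some were called with the opposite sign under another scaling. For Brg1 in 22Rv1 under the deposited scaling and as shares of reads of the same kind, RPL27A.primary was at -0.25 and -0.62, RPL32.primary at -0.23 and -0.61, and RPL35.primary at -0.15 and -0.53. For Brg1 in LNCaP as shares of reads of the same kind, RPL19 was at 0.25, RPL8 at 0.27, RPL36AL at 0.11, RPL7L1 at 0.0294 and RPL35.primary at -0.03975. Under the deposited scaling RPS27L was at -1.36, RPL26L1 at -1.09 and RPL35.primary at -0.89. RPL32.primary was at 0.03747 with TMM, 0.05082 with edgeR (0.07936 on 2 groups), and between -0.21 and 0.18 with 1 library left out. RPS27L was at -0.07214 with DESeq2. With 1 library left out the ranges were -0.26 to 0.28 for RPS27L, -0.51 to 0.05381 for RPL19, -0.47 to 0.07118 for RPL8 and -0.61 to 0.07917 for RPS3.primary. Depth limits the LNCaP IgG libraries most, where 1 read is 45.1 and 21.6 RPM.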

Other observations

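The .primary rows of related genes gave mixed directions with Brg1 and mostly lower values with Sfpq. With Brg1 in 22Rv1, 54.1% of all .primary rows were higher than Input and 11.3% lower, with a median of 0.53. Mitochondrial ribosomal protein genes had 20 of 45 .primary rows higher and 7 lower (median 0.32). Other mRNAs with a TOP sequence had 3 of 15 higher and 6 lower (median -0.33), and ribosome biogenesis factors 1 of 28 higher and 10 lower (median -0.18). With Sfpq 34 of 45, 12 of 15 and 21 of 28 of these rows were lower (medians -0.83, -1.04 and -0.90). Of all .primary rows 49.9% were lower, with a median of -0.52. The lists were not tested against each other.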
